A study of Mus musculus with 4 samples.

Results

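Kinesins are motor proteins that walk along or reshape microtubules. The genes described here are the 38 rows of the deposited count table whose name begins with Kif followed by a digit, of 23473 rows that carry a gene name. They were sorted by known role into 12 mitotic kinesins, 13 transport kinesins, 12 others and 1 pseudogene row, Kif4-ps. The libraries are described as MIN6, an established line of mouse insulinoma cells that serves as a beta cell model. There were 2 libraries of wild-type control cells and 2 of cells that stably overexpress TLX, the orphan nuclear receptor encoded by Nr2e1. All 4 were grown with 25 mM glucose and 15% serum. The labels name neither the vector nor whether the overexpressing cells are 1 clone, and do not say that the 2 libraries of a group came from separate cultures, so p-values measure only the spread between these libraries.

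Mitotic kinesins act while a cell divides: they push spindle poles apart, hold and move chromosomes, trim microtubule ends and build the midzone where the cell is cut. Their transcripts are made mainly late in the cell cycle, so they are abundant in dividing cells and scarce in resting ones. Transport kinesins carry vesicles, mitochondria and other cargo at all times, and in beta cells kinesin-1, of which Kif5b encodes a heavy chain, moves insulin granules toward the cell surface.

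The 4 libraries held 8136185 to 9788646 counts in gene rows, of which kinesin rows took 0.129% to 0.147%. Nr2e1 was counted 8 and 10 times in control replicates 1 and 2 and 338 and 281 times in TLX replicates 1 and 2. Defining beta cell markers were scarce in both groups. Of 13, 9 were at 0 in every library, among them Iapp, Chga and Slc2a2. The other 4 were counted in every library, at low levels. They were Ins1 (70 to 98 counts a library), Ins2 (32 to 50), Pdx1 (33 to 40) and Mafa (14 to 19). The summed level of the list was 18.3 to 20.6 CPM in control and 20.8 to 21.7 CPM in TLX. CPM is the usual counts-per-library-size unit, here on library sizes scaled by TMM, which corrects for a shift of the bulk of genes. These marker levels do not bear out a beta cell identity in either group, and the reason was not tested. Mesenchymal markers summed to 7560 and 7963 CPM in control and 8247 and 8584 CPM in TLX, a total carried by 6 of 10 genes that did not move alike: Sparc and Col1a2 rose (log2 fold changes 0.87 and 0.28, adjusted p of 2.21e-08 and 0.0434), Fn1 fell (-0.76, adjusted p = 4.34e-07), and Dcn, Thy1, Acta2 and Lum had at most 3 counts a library. The 7 neuronal markers summed to 3.01 to 4.53 CPM, with Snap25, Stmn2 and Rbfox3 at 0. Of 4 leukocyte markers Ptprc and Csf1r had at most 1 count a library. Cd68 fell from 59.2 and 68.2 to 43.3 and 45.4 CPM (adjusted p = 0.000391), and Lyz2 stood at 17.4 and 17.3 CPM in control and 16.4 and 16.9 CPM in TLX, so that the list summed to 76.7 and 85.7 CPM in control and 59.8 and 62.5 CPM in TLX. The part of these differences in the results was not tested.

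Mitotic kinesins were higher with TLX and transport kinesins showed no common direction. Of the 38 rows, 25 had enough counts to be tested (11 mitotic, 10 transport and 4 others). Among the 11 tested mitotic kinesins 8 rose, 0 fell and 3 did not pass, while among all 11024 genes tested 7.79% were called higher and 9.04% lower (edgeR quasi-likelihood test, adjusted p under 0.05), 16.8% in all. A positive log2 fold change means a higher level in TLX; all 11 tested mitotic kinesins had one, as did 50.1% of all genes tested (49.9% were negative). Among the 10 tested transport kinesins 0 rose and 0 fell. The median log2 fold change was 0.41 (1.33-fold) over the tested mitotic kinesins, 0.01 over the tested transport kinesins and 0.00057 over all genes tested. In bulk RNA a larger share of dividing cells and more RNA per dividing cell cannot be told apart.

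**Figure D1:**
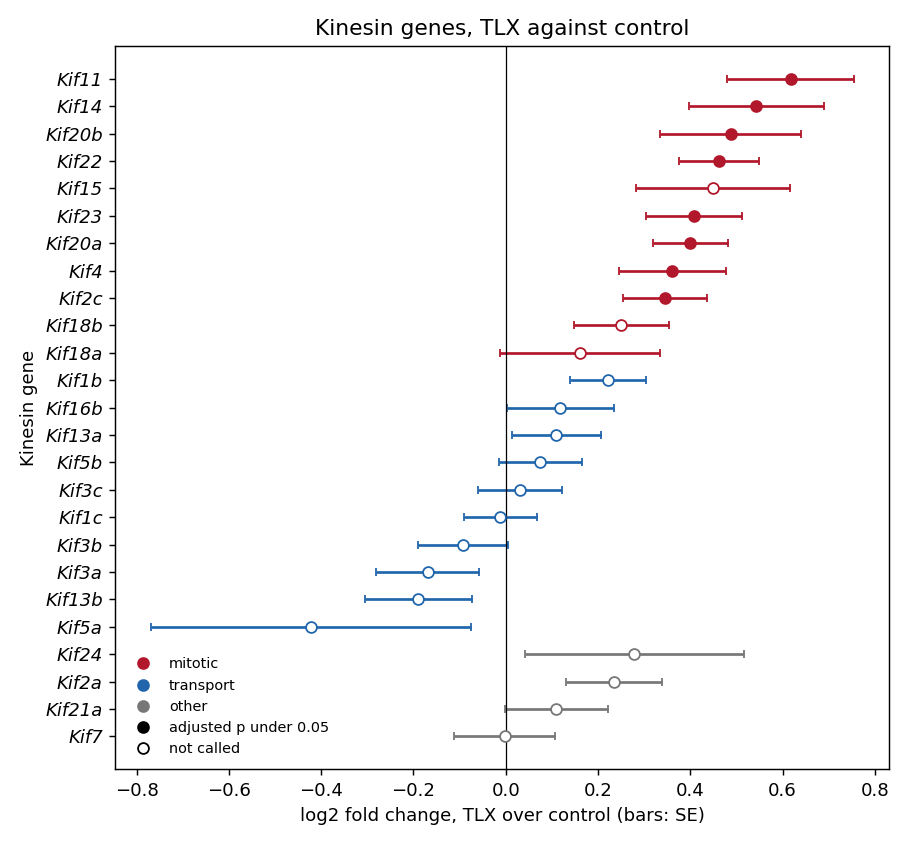
Log2 fold change of each tested kinesin gene (TLX over control, x axis) with its SE, sorted within the mitotic (red), transport (blue) and other (grey) classes, with filled points for genes called at an adjusted p under 0.05. All 11 mitotic genes lie right of 0, from 0.16 to 0.62, and the 10 transport genes lie on both sides, from -0.42 to 0.22.

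Spindle bipolarity rests on Kif11 (Eg5), which slides the spindle poles apart, and on Kif15, which helps to keep them apart. Kif11 stood at 11.7 and 14.2 CPM in control replicates 1 and 2 and at 20.0 and 20.1 CPM in TLX replicates 1 and 2. Both TLX libraries lay well above both controls, and the log2 fold change of 0.62 (SE 0.14, adjusted p = 0.00281) was the largest of all tested kinesins. Kif15 stood at 7.43 and 9.06 CPM in control and at 11.1 and 11.6 CPM in TLX. Its groups did not overlap either, but with only 62 to 96 counts a library its log2 fold change of 0.45 (SE 0.17) did not pass (adjusted p = 0.0691). It did pass without the low count filter (0.0496) and without control replicate 2 (0.0342).

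Kif22 and Kif4 are chromokinesins, which bind chromosome arms, and Kif22 pushes the arms toward the spindle equator. Kif22 stood at 57.9 and 55.4 CPM in control and rose to 80.5 and 75.3 CPM in TLX (log2 fold change 0.46, SE 0.09, adjusted p = 0.000584, the smallest among the kinesins). Its groups were far apart for the spread within them. Kif4 stood at 29.3 and 31.9 CPM in control and at 34.3 and 44.8 CPM in TLX (log2 fold change 0.36, SE 0.12, adjusted p = 0.0355). Here TLX replicate 2 carried most of the difference: without it the log2 fold change of Kif4 was 0.16 and the adjusted p 0.574, and without control replicate 1 the adjusted p was 0.0527. Kif4 shares 15.1% of its exonic bases with Pdzd11 on the opposite strand in GENCODE, and since the use of strand in counting is not given in the sources used here, reads of the pair cannot be told apart. Pdzd11 itself had a log2 fold change of -0.11 (adjusted p = 0.498).

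The 3 tested kinesins that act at kinetochores and microtubule plus ends had the lowest median log2 fold change of the mitotic role groups, 0.25. Kif2c (MCAK), which strips tubulin from microtubule ends, stood at 41.4 and 41.3 CPM in control and rose to 53.1 and 52.0 CPM in TLX (log2 fold change 0.35, SE 0.09, adjusted p = 0.011). The replicates of each group were close together. Kif18b, a plus end motor that shortens astral microtubules, stood at 29.8 and 32.7 CPM in control and at 37.1 and 37.5 CPM in TLX (log2 fold change 0.25, SE 0.10, adjusted p = 0.0994, and 0.0477 without control replicate 2). Kif18a, which damps chromosome oscillations at the equator, stood at 7.55 and 8.36 CPM in control and at 9.14 and 8.71 CPM in TLX. It had the smallest difference of the class, with a log2 fold change of 0.16 (SE 0.17, adjusted p = 0.583). Kif2b, a relative of Kif2c, had 0 counts in every library, and the floor of 3 counts lay between 0.302 and 0.379 CPM, counting error only.

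All 4 kinesins of the midzone and cytokinesis rose. Kif20a (MKLP2), which brings the chromosomal passenger complex to the midzone, was the most abundant mitotic kinesin, at 114 and 128 CPM in control and 157 and 162 CPM in TLX (log2 fold change 0.40, SE 0.08, adjusted p = 0.00115). Kif23 (MKLP1), the motor of the centralspindlin complex, stood at 27.2 and 30.3 CPM in control and at 38.2 and 38.4 CPM in TLX (log2 fold change 0.41, SE 0.10, adjusted p = 0.00826). Kif14, which recruits citron kinase to the cleavage site, stood at 10.5 and 12.99 CPM in control and at 16.4 and 18.2 CPM in TLX (log2 fold change 0.54, SE 0.15, adjusted p = 0.0123). In each of these 3 genes, as in Kif20b, the lower TLX library lay above the higher control. Kif20b (MPP1), which works late in cytokinesis, stood at 12.3 and 14.9 CPM in control and at 16.4 and 22.2 CPM in TLX (log2 fold change 0.49, SE 0.15, adjusted p = 0.0294). Its TLX libraries were the least alike, and without TLX replicate 2 its log2 fold change was 0.26 (adjusted p = 0.417). Kif20a shares 29.3% of its exonic bases with Cdc23 on the opposite strand, so that part of its reads is uncertain; Cdc23 had a log2 fold change of 0.06 (adjusted p = 0.72).

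**Figure D2:**
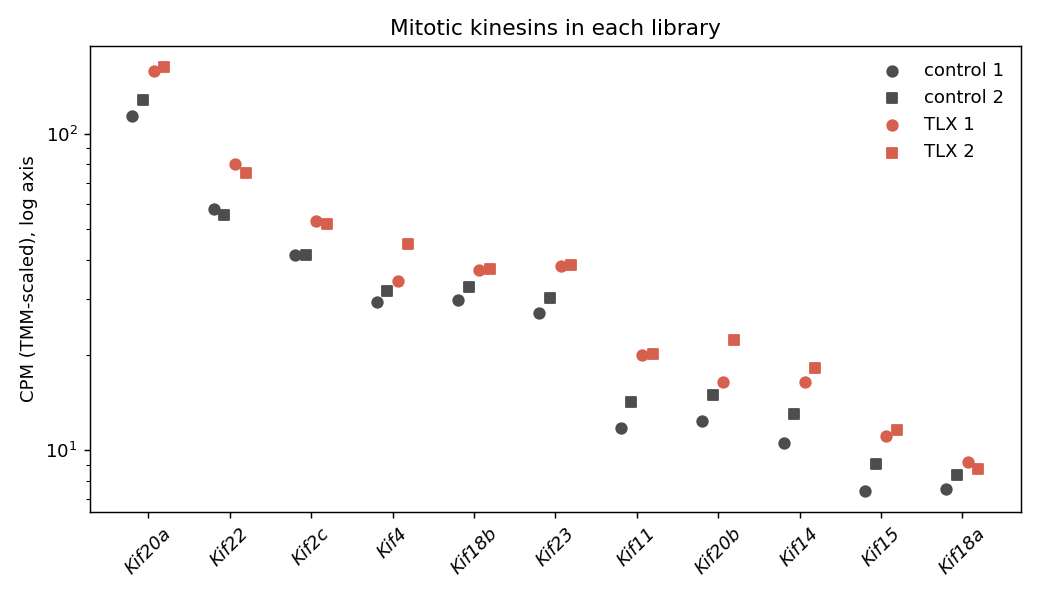
CPM of the 11 tested mitotic kinesins in each library (y axis, log scale), with control in grey, TLX in red, circles for replicate 1 and squares for replicate 2. In every gene both TLX points lie above both control points, from Kif20a (114 to 162 CPM) down to Kif18a (7.55 to 9.14 CPM).

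Both TLX libraries exceeded both controls in all 11 tested mitotic kinesins, in 1 of 10 tested transport kinesins (Kif1b) and in 28.5% of all genes tested. How firmly single genes passed varied. Kif11, Kif20a and Kif22 were called under every alternative run. Kif14, Kif20b, Kif23, Kif2c and Kif4 did not pass in DESeq2 (adjusted p of 0.138, 0.196, 0.0942, 0.109 and 0.199), where 3 of 11 mitotic kinesins were called higher against 3.22% of all genes tested. The same 5 genes did not pass without TLX replicate 2 (0.0794, 0.417, 0.0515, 0.0667 and 0.574; 3.54% of all genes called higher). Without control replicate 1 the calls of Kif14 (0.073), Kif20b (0.101) and Kif4 (0.0527) were lost, and without TLX replicate 1 those of Kif23 (0.0522) and Kif2c (0.111). Over all alternatives the adjusted p ranged from 0.000569 to 0.138 for Kif14, 0.00104 to 0.417 for Kif20b, 0.000326 to 0.0942 for Kif23, 0.000557 to 0.111 for Kif2c and 0.00118 to 0.574 for Kif4. It ranged from 0.0243 to 0.382 for Kif15 and from 0.0375 to 0.412 for Kif18b. As background to these counts, 8.88%, 8.94% and 4.26% of all genes tested were called higher without control replicate 1, control replicate 2 and TLX replicate 1, and 9.39%, 9.44%, 5.3% and 5.73% lower without control replicate 1, control replicate 2, TLX replicate 1 and TLX replicate 2. In DESeq2 4.39% were called lower. In limma-voom 7.71% were called higher and 8.9% lower, without the low count filter 5.76% and 7.07%, and with the replicate number as a block 13.6% and 13.5%. Kinesins called lower numbered 0 in each of these fits. No alternative turned the sign of a tested mitotic kinesin.

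To set the mitotic genes beside the transport genes at the sequence level, promoters were taken from RefSeq on GRCm38.p6, a later build than the mm9 of the submitters' processing notes. Of the 38 rows 31 have an entry. The 7 without one are Kif20a, the most abundant mitotic kinesin, the transport kinesins Kif5a, Kif5b and Kif13b, and Kif19a, Kif21b and Kif4-ps. A gene with several starts, such as Kif1b, counts as holding a motif if any of its windows does. The shares over all promoters are instead per promoter entry, so the units differ for genes with several starts. The 250 bases before each gene start were searched on both strands for TTTGAA and TTCGAA, forms of the cell cycle homology region (CHR) known from promoters of late cell cycle genes, for the CCAAT box, which often lies upstream of it, and for AAGTCA, the core that TLX is known to bind. No 2 matches in kinesin promoters overlapped. The last 80 bases before the start are shown for the 3 mitotic genes with a TTTGAA match (here read as TTCAAA, on the reverse strand) closest to the start, and for the transport genes Kif1c and Kif3b beside them. The mitotic genes shown were chosen for their match, so these stretches do not compare the classes. Kif14, which rose, holds no TTTGAA or CCAAT match in its last 80 bases and is not shown. Capitals mark TTTGAA and CCAAT matches in either orientation.
Kif11: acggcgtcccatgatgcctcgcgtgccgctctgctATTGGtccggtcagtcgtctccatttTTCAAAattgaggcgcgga
Kif15: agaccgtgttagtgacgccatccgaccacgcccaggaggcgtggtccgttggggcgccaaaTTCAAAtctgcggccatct
Kif22: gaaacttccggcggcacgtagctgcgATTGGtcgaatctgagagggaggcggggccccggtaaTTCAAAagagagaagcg
Kif1c: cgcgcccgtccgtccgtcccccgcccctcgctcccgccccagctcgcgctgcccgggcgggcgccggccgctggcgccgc
Kif3b: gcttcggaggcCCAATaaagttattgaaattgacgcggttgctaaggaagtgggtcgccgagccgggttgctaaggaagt

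These stretches lie at chr19:37376302-37376381 (plus strand) for Kif11, chr9:122951001-122951080 (plus) for Kif15, chr7:127042421-127042500 (minus) for Kif22, chr11:70700468-70700547 (plus) for Kif1c and chr2:153291336-153291415 (plus) for Kif3b. In Kif11 and Kif15 the TTCAAA begins 19 bases before the gene start and in Kif22 17 bases before it. In Kif11 and Kif22 an ATTGG, the reverse of CCAAT, begins 45 and 54 bases before the start. Kif1c holds neither motif in its 250 bases, and Kif3b holds a CCAAT that begins 69 bases before its start.

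Of the 10 tested mitotic kinesins with a promoter entry, 5 held TTTGAA (Kif11, Kif14, Kif15, Kif22 and Kif2c), of 7 tested transport kinesins 0, against 16.0% of all 32851 RefSeq promoters. In Kif14 and Kif2c the only match lies farther from the start, 228 and 103 bases before it. With the kinesins not tested for expression included, TTTGAA was found in 5 of 11 mitotic, 1 of 10 transport (Kif1a, 44 bases before the start) and 2 of 10 other kinesins (Kif26b and Kif27). TTCGAA was found in 0 of 10 and 0 of 7, against 1.34% of all promoters. CCAAT was found in 6 of the 10 and 3 of the 7, against 33.8%. AAGTCA was found in 1 of the 10 (Kif2c) and 1 of the 7 (Kif16b), against 13.1%. Of the 3 mitotic kinesins that did not pass, Kif15 holds TTTGAA, Kif18b holds CCAAT and Kif18a holds none of the 4 motifs. Kif20b rose and holds none either. A match is a description of these letters only.

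The 10 tested transport kinesins had log2 fold changes from -0.42 to 0.22, 5 positive and 5 negative. Kif1c, a kinesin-3 motor of vesicles and integrin-bearing cargo, was the most abundant kinesin transcript per length, at 58.9 CPM per kilobase on average over the 4 libraries, ahead of Kif20a (35.96) and Kif22 (32.6). It stood at 423 and 377 CPM in control and at 396 and 398 CPM in TLX. The TLX values lay between the controls, and the log2 fold change was -0.01 (SE 0.08, adjusted p = 0.944). Kif1b, which carries mitochondria and synaptic vesicle precursors, stood at 106 and 115 CPM in control and 123 and 134 CPM in TLX. It had the highest log2 fold change of the class at 0.22 (SE 0.08), which did not pass (adjusted p = 0.0693, 0.0109 without control replicate 2, and 0.00509 to 0.528 over all alternatives). The remaining kinesin-3 genes Kif16b, Kif13a and Kif13b had log2 fold changes of 0.12, 0.11 and -0.19 (adjusted p of 0.539, 0.484 and 0.29), and Kif1a, the neuronal vesicle motor, was at 0 counts in every library.

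Among kinesin-1 heavy chains the widely expressed Kif5b made up nearly all of the signal. It stood at 92.8 and 109 CPM in control and at 99.6 and 113 CPM in TLX, so that the groups overlapped (log2 fold change 0.08, SE 0.09, adjusted p = 0.632). The neuronal heavy chains were scarce. Kif5a was at 2.04 and 2.92 CPM in control and 1.39 and 2.40 CPM in TLX (log2 fold change -0.42, SE 0.35, adjusted p = 0.45), and Kif5c had 1 to 3 counts a library and was not tested. Klc1, the most abundant light chain by CPM, showed a log2 fold change of 0.21 (adjusted p = 0.0684). The ratio of Klc1 to Kif5b, each per length, was 3.76 and 2.86 in control and 3.84 and 3.37 in TLX, with overlapping groups.

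Kinesin-2 builds cilia and carries organelles as a trimer of Kif3a, Kif3b or Kif3c, and the adaptor Kifap3. Kif3a stood at 29.1 and 31.6 CPM in control and 25.7 and 28.5 CPM in TLX (log2 fold change -0.17, SE 0.11, adjusted p = 0.328). Its TLX libraries lay below both controls, as they did for Kif13b and for 28.6% of all genes tested. Kif3b stood at 59.4 and 71.2 CPM in control and 58.4 and 64.6 CPM in TLX, and Kif3c at 52.0 and 57.1 CPM in control and 57.4 and 54.3 CPM in TLX. Both overlapped between the groups, with log2 fold changes of -0.09 and 0.03 (adjusted p of 0.571 and 0.865). Kif3c shares 35.3% of its exonic bases with the antisense gene 1110002L01Rik, whose log2 fold change was -0.50 (adjusted p = 0.0149), so that its value is uncertain. The ratio of Kif3a to Kif3b per length was 0.51 and 0.46 in control and 0.46 and 0.46 in TLX. Kif17, a motor of dendrites and cilia, had at most 1 count a library.

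That 0 of 10 tested transport kinesins were called does not show that they did not change. Kif1b alone had an unadjusted p under 0.05 (1 of 10 in edgeR), and neither DESeq2 nor limma-voom called any (0 each). With the replicate number as a block, edgeR did call Kif1b higher (adjusted p = 0.00509). The SE was 0.08 to 0.12 for 9 of the 10, against 0.35 for Kif5a. Among the 11 mitotic and 10 transport genes there were 110 pairs, and in 109 of them the mitotic gene had the larger log2 fold change. The exception was Kif18a, below Kif1b. The difference between the classes is given as a description, without a test.

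**Figure D3:**
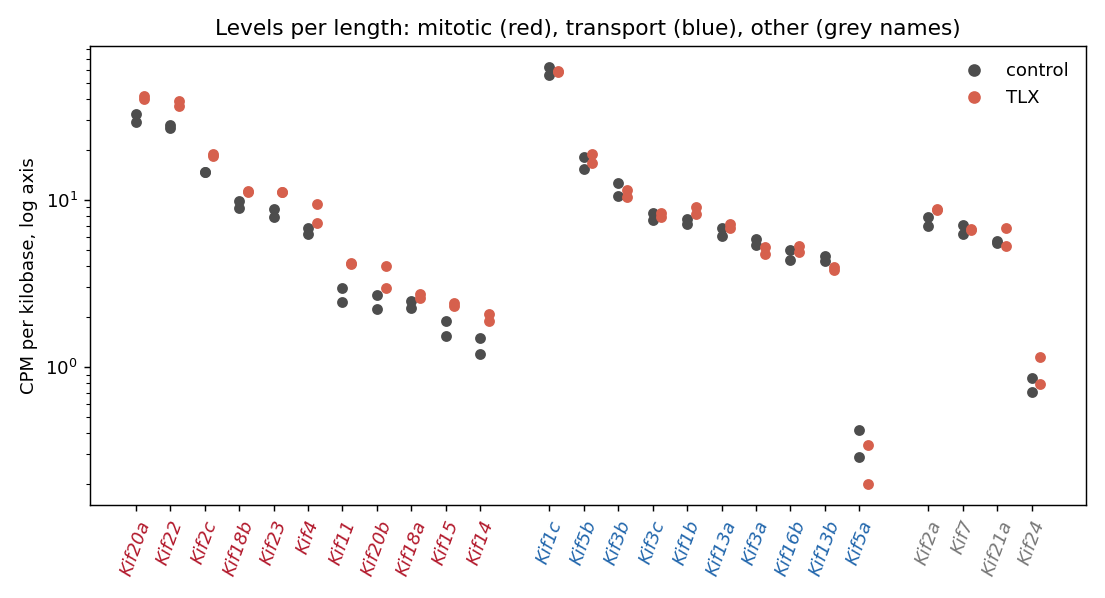
Level per length (CPM per kilobase, y axis, log scale) of each tested kinesin in control (grey) and TLX (red) libraries, with gene names in red for mitotic, blue for transport and grey for other kinesins. Kif1c is highest at 58.9 CPM per kilobase on average, mitotic genes sit higher in TLX, and points of most transport genes overlap.

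Summed over each class per length, mitotic kinesins stood at 105 and 111 CPM per kilobase in control and at 142 and 144 in TLX, and transport kinesins at 124 and 125 in control and at 123 and 127 in TLX. The mitotic sum was below the transport sum in both controls and above it in both TLX libraries. This crossing depends on the scale: in plain CPM, where long transcripts weigh more, the mitotic sum was below the transport sum in all 4 libraries (ratios 0.408 and 0.440 in control, 0.551 and 0.551 in TLX). The ratio of the sums, which does not depend on how libraries are scaled, was 0.845 and 0.889 in control (0.867 ± 0.032, SD, n = 2) and 1.149 and 1.128 in TLX (1.139 ± 0.015, SD, n = 2), a ratio 1.31 times as high. The smallest p that 2 against 2 libraries allow in a two-sided exact permutation test is 0.333, so none is given. The most abundant genes weigh heavily in these sums: Kif20a and Kif22 made up 28.7% and 26.0% of the mitotic sum on average, and Kif1c 47.2% of the transport sum. Without Kif20a and Kif1c the ratio was 1.23 and 1.13 in control and 1.56 and 1.49 in TLX, above 1 in all 4 libraries and 1.29 times as high in TLX. The ratio of Kif20a to Kif1c alone, each per length, was 0.467 and 0.587 in control and 0.689 and 0.707 in TLX.

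**Figure D4:**
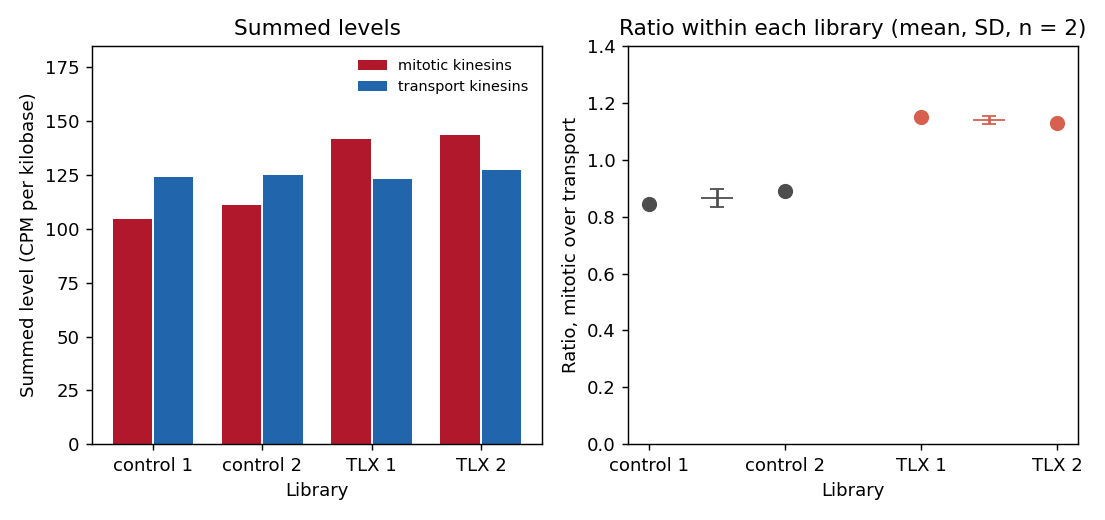
Left, summed levels (CPM per kilobase) of mitotic (red) and transport (blue) kinesins in each library. Right, their ratio in each library with the group mean and SD (n = 2): 0.845 and 0.889 in control (grey) against 1.149 and 1.128 in TLX (red).

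The other 12 kinesins include motors of cilia, centrioles and Hedgehog signalling and regulators of microtubule dynamics. Only 4 were tested, and 0 were called (edgeR; Kif2a, 1 of the 4, had an unadjusted p under 0.05; DESeq2 and limma-voom called 0). Kif2a, a depolymerase of spindle poles and axons, stood at 29.2 and 33.1 CPM in control and 36.8 and 36.8 CPM in TLX, with groups that did not overlap (log2 fold change 0.23, SE 0.10, adjusted p = 0.131, 0.0417 without control replicate 2, and 0.0417 to 0.462 over all alternatives). It shares 19.2% of its exonic bases with Dimt1 on the opposite strand, which had a log2 fold change of -0.35 (adjusted p = 0.0782). Kif24, which restrains cilium formation at the centriole, had 33 to 51 counts a library and a log2 fold change of 0.28 (SE 0.24, adjusted p = 0.473). Kif21a, which slows microtubule growth, had 0.11 (adjusted p = 0.553), and Kif7, a regulator at the tip of the cilium in Hedgehog signalling, had -0.0026 (adjusted p = 0.99). Kif7 shares 19.1% of its exonic bases with the antisense gene 9330171B17Rik and 1.11% with Ticrr on the opposite strand, so its value is uncertain. Ticrr had a log2 fold change of 0.46 (adjusted p = 0.00674).

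The 13 rows that were not tested were near or at 0. Kif1a, Kif2b, Kif6, Kif12 and Kif4-ps had 0 counts in every library. The other 8 (Kif5c, Kif9, Kif17, Kif19a, Kif21b, Kif26a, Kif26b and Kif27) had at most 13 counts in a library, and the highest of them, Kif9, a motor of motile cilia, averaged 0.897 CPM.

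Kinesin genes outside the name pattern and kinesin subunits did not pass: of 9 tested, 0 were called in either direction (edgeR; 3 at an unadjusted p under 0.05; 0 in DESeq2 or limma-voom). Cenpe, the kinetochore motor that aligns chromosomes, averaged 39.1 ± 4.1 CPM over the controls and 47.2 ± 7.7 CPM over the TLX libraries (SD, n = 2; log2 fold change 0.26, adjusted p = 0.109), with overlapping groups. Kifc1, the minus end motor that focuses spindle poles, had a log2 fold change of 0.21 and its near copy Kifc5b of -0.05 (adjusted p of 0.227 and 0.848). Reads of these near-identical genes may have been split between them, so both values are uncertain. The count of calls was 2 higher without control replicate 1 and 1 higher without control replicate 2 or TLX replicate 1.

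Among the 17 tested partners of the mitotic kinesins 9 rose, 0 fell and 8 did not pass, against 7.79% of all genes tested called higher. All 17 had a positive log2 fold change (50.1% of all genes tested), with a median of 0.28, and in 2 of them, Cdca8 and Ckap5, the groups overlapped. The mitotic kinase gene Plk1, whose product binds Kif20a, had the largest change (0.74, adjusted p = 1.47e-06). Racgap1, which encodes the partner of Kif23 in centralspindlin, rose from 149 ± 5 to 192 ± 6 CPM (SD, n = 2; log2 fold change 0.37, adjusted p = 0.00144). The ratio of Kif23 to Racgap1 per length was 0.168 and 0.179 in control and 0.182 and 0.174 in TLX, with overlapping groups. Hmmr, a spindle pole protein gene, rose by 0.63, Cdk1 by 0.35, the checkpoint gene Bub1b by 0.36 and Ect2, which activates RhoA at the cleavage site, by 0.40 on the log2 scale (adjusted p of 0.00315, 0.00439, 0.00625 and 0.00834). Without TLX replicate 2 only 2 of the 17 passed, Plk1 and Bub1b. The count was 5 without TLX replicate 1 and 4 in DESeq2, where 3.54%, 4.26% and 3.22% of all genes tested were called higher in turn.

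Of 12 tested tubulins, the subunits of the track, 4 rose, 0 fell and 8 did not pass (7.79% of all genes tested were called higher), with a median log2 fold change of 0.23. Tubb4b rose from 318 ± 24 to 513 ± 37 CPM and Tubb5 from 1104 ± 69 to 1452 ± 59 CPM (SD, n = 2; log2 fold changes 0.69 and 0.40, adjusted p of 2.09e-06 and 0.00205). Tuba1b and Tuba4a rose by 0.32 and 0.29 (adjusted p of 0.011 and 0.0393). Without TLX replicate 1 Tubb4b alone passed, and without control replicate 1 7 tubulins passed (4.26% and 8.88% of all genes tested called higher).

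Cargo adaptors and the dynein machinery were called about as often as genes in general, of which 16.8% were called in either direction. Of 15 tested cargo adaptors of transport kinesins 1 rose, 2 fell and 12 did not pass, with a median log2 fold change of 0.02. Grip1, an adaptor of Kif5 in neurons, fell from 7.19 ± 0.34 to 3.63 ± 0.22 CPM, and Plekhm2 (SKIP), which links lysosomes to kinesin-1, fell from 65.0 ± 0.2 to 51.5 ± 5.9 CPM (SD, n = 2; log2 fold changes -0.98 and -0.33, adjusted p of 0.00272 and 0.0155). Hap1, a huntingtin-associated adaptor gene, rose from 1.48 ± 0.10 to 2.94 ± 0.42 CPM (adjusted p = 0.0396). In DESeq2 neither Grip1 nor Plekhm2 passed (0.0718 and 0.112), without TLX replicate 2 Plekhm2 did not (0.332), and Hap1 did not pass when any 1 library was left out (0.0596 to 0.262). Of 23 tested genes of cytoplasmic dynein and dynactin, which pull cargo the opposite way, 2 rose (Dync1i2 by 0.29 and Pafah1b1 by 0.28), 1 fell (Ndel1 by 0.29) and 20 did not pass, the 3 calls having adjusted p of 0.0191, 0.0177 and 0.0199 and the list a median of -0.02. None of these 3 passed in DESeq2 (0.0952, 0.083 and 0.118) or without either TLX replicate (0.0743 to 0.262). Dync1h1, which encodes the dynein heavy chain, averaged 816 ± 14 CPM over the controls and 801 ± 25 CPM over the TLX libraries (SD, n = 2; adjusted p = 0.871).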

How the data were processed

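RNA-seq of cells described as MIN6 gave 2 control and 2 TLX libraries. The authors deposited raw read counts per feature and library with each feature's length, per the file headers. TopHat2 2.0.13 and mm9 are named in the submitters' processing notes. Which program and annotation produced the counts, and whether strand was used, is not given in the sources at hand. The length column (other) is the feature length in bases as deposited and was used for CPM per kilobase. The 33353 cDNA clone rows, some of which repeat gene counts, were left out.

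The quasi-likelihood test of edgeR 4.0.16 (glmQLFit, glmQLFTest; R 4.3.3) was run on TMM-scaled gene rows that passed filterByExpr with a minimum count of 10. The fit left 2 residual degrees of freedom a gene and gave a common biological variation of 5.24%. The test draws each gene's spread toward a trend over all genes tested. A p-value therefore does not rest on the spread of its own gene alone. The p-values were adjusted by Benjamini-Hochberg over all 11024 genes, with a threshold of 0.05. SE is the log2 fold change divided by the square root of F. DESeq2 1.42.0 and limma 3.58.1 served as alternatives. The test was also run on simulated data, but the outcome is not given here and nothing is drawn from it. Counting intervals and floors cover counting error only. The median per-gene chi-square of the control pair was 1.13 and of the TLX pair 0.923, against 0.455 for sampling noise, so no library was taken for a repeat. Exonic overlaps are from GENCODE on GRCm38, by symbol. Members, classes and related lists were chosen with earlier results of these data known. Values in every library are given for tested mitotic kinesins, called kinesins and the most abundant transport kinesins; of related lists up to 6 called genes are named by smallest p. Other genes named (single markers, Cdca8, Ckap5, Cenpe, Kifc1, Kifc5b, Klc1, Dync1h1, genes with overlapping exons) and the subunit ratios were chosen after their values were seen.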

Additional observations from a re-analysis of the deposited data

How the results depend on the processing

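The fit was repeated with DESeq2 size factors or total counts for scaling, without the low count filter or with a 10 CPM minimum, in limma-voom and by DESeq2's Wald test, with a replicate block, with clone rows, with each library left out, and with other class borders. Under each of them 0 kinesins were called lower. The count called higher was 3 in DESeq2 for all kinesins and 3 for mitotic ones, and 3 to 12 and 3 to 10 with 1 library left out, against 8 and 8. With the replicate block 1 transport kinesin was called higher (Kif1b, adjusted p = 0.00509), and 0 to 1 with 1 library left out; the block also called Kif15 (0.0243) and Kif18b (0.0375). Over all genes the block called 1495 higher and 1487 lower, against 859 and 997. The labels give same-numbered libraries no shared origin beyond the number. Across 11024 genes the replicate differences of the groups correlated at 0.11. Of 25 tested kinesins 19 had the same sign in both groups. The share over all genes was not counted, so this shows nothing particular to kinesins. With 1 library left out, the median log2 fold change was 0.33 to 0.49 for mitotic and -0.033 to 0.076 for transport kinesins, the difference of the medians 0.37 to 0.43, and the ratio of sums 1.28 to 1.35 times as high in TLX. Signs near 0 turned with 1 library left out for Kif5b (-0.033 to 0.20), Kif3c (-0.033 to 0.10), Kif1c (-0.092 to 0.072), Kif3b (-0.21 to 0.048), Kif24 (-0.0098 to 0.54), Kif21a (-0.071 to 0.28) and Kif7 (-0.090 to 0.081; 0.00062 in limma-voom), none of them called. The cause was not tested. With 1 library left, a group is assumed to vary like the other. DESeq2 gave no adjusted p for Kif5a, and the 10 CPM filter left out Kif15, Kif18a, Kif24 and Kif5a. Depth limits the rows under about 100 counts a library most.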
